A study of Mus musculus with 2 samples.

Results

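Accessible chromatin was described at 10 classical cadherin genes of motor pools, Cdh2, Cdh6, Cdh7, Cdh8, Cdh9, Cdh10, Cdh11, Cdh12, Cdh20 and Cdh22, in spinal motor neurons of the mouse embryo. Hb9::GFP embryos of C57/Bl6 mice were taken at embryonic day 10.5, and their GFP+ cells were purified by FACS. Regulatory sequence of Hb9, now named Mnx1, a transcription factor gene of motor neurons, drives GFP in these mice, and the transgene is known to mark some other neurons too. ATAC-seq, in which the Tn5 transposase cuts and tags open chromatin, was run on 2 replicates of this single group, and the authors pooled both into 1 list of peaks. No comparison tissue, treatment or control was analysed, and the number of embryos or litters behind a replicate is not stated in the labels. Each entry of the list is 1 summit within a peak interval, and an interval can hold several. An entry was assigned to a cadherin gene when its summit lay inside the gene span, or within 100 kb of it with that gene's end as the nearest end of any protein-coding gene. In all, 242 of 138387 entries met this rule, 182 of them inside a gene span and 60 outside.

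Classical cadherins are calcium-dependent adhesion proteins that bind like cadherins on neighbouring cells and are tied to actin inside the cell by catenins. Cdh2 (N-cadherin) is the type I member of the group, found throughout the neural tube and on most neurons. The other 9 are type II cadherins, which are expressed in overlapping combinations, and such combinations set motor neurons apart into pools that each serve 1 muscle. Open chromatin marks promoters and regulatory sites in use or poised for use. It does not measure RNA or protein, so no value below is an expression level.

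Values are the authors' fold, the ratio of reads at the summit to the local background, and a read number at the summit, solved from that fold and the deposited −log10 p. No value has a replicate error, because the replicates were pooled, and no test between groups was possible. The smallest read number in the list was 11 and the lowest background 5.37 reads, so a stretch without an entry was below the caller's limit and was not shown to be closed. This lowest background was shared by 48.8% of the cadherin entries and 45.8% of all entries. For them the fold follows from the reads alone, so fold and reads are not separate measures of strength. Among 137849 entries on chromosomes 1 to 19, X and Y, the median was 24 reads and 3.14-fold. The sorted identity was checked at marker loci. All 6 motor neuron genes examined (Mnx1, Isl1, Isl2, Lhx3, Chat and Slc18a3) had an entry at a start or end, with 34 to 406 reads, as did 69.3% of all genes. So did 1 of 4 blood genes (Spi1, 128 reads), 2 of 3 endothelial (17 and 72 reads), 1 of 3 epidermal (26 reads) and 3 of 3 neural crest or sensory genes (26 to 146 reads). Spi1, Pou4f1 (146 reads) and Kdr (72 reads) thus had more reads than Chat (34), Lhx3 (41) and Slc18a3 (57). The presence of other cells in the sort was not tested.

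All 10 cadherin genes had an entry with its summit within 1 kb of an annotated start or of a gene end. Across 21887 protein-coding genes this held for 69.3%, and for 90.1% of the longest 10% of genes, to which all 10 cadherin genes belong, so the count lay near that of other long genes. Counting annotated starts alone, which were given for 8 of the members, 7 of 8 had an entry within 1 kb, against 66.5% of 17492 genes and 88.6% of long genes with an annotated start. Cdh10 was the member without one. Below are the 250 bases before the start of 6 members, from RefSeq (GRCm38.p6, the assembly behind mm10). They are examples of starts that differ in accessibility or share sequence, and those of Cdh7 and Cdh8 are not printed. Capitals mark the longest run of bases that the promoters of different members share.
Cdh6, chr15:13173676-13173925, minus strand: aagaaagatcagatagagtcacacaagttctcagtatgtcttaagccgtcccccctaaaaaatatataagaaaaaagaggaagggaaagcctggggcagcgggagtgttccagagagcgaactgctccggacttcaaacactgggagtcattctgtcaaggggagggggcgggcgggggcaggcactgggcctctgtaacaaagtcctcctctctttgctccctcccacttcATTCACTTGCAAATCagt
Cdh9, chr15:16728665-16728914, plus strand: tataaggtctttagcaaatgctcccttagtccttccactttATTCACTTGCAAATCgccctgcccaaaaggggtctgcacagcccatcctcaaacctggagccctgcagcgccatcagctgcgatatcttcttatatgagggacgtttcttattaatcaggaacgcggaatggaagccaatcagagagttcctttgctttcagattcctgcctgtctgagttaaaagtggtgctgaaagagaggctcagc
Cdh12, chr15:21111202-21111451, plus strand: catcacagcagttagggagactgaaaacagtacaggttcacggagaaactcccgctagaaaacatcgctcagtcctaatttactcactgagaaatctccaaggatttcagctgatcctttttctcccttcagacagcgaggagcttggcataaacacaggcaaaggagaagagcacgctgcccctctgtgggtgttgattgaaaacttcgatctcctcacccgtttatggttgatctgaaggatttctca
Cdh10, chr15:18820079-18820328, plus strand: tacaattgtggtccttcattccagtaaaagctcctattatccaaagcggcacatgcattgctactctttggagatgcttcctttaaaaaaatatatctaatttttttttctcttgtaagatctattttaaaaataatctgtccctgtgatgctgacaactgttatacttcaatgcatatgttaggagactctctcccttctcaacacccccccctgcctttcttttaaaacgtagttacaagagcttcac
Cdh22, chr2:165234738-165234987, minus strand: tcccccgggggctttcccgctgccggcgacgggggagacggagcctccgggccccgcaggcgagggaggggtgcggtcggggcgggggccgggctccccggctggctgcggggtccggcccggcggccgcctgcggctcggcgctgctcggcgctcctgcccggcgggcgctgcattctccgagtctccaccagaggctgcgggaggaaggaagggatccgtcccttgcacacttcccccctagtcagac
Cdh20, chr1:104768270-104768519, plus strand: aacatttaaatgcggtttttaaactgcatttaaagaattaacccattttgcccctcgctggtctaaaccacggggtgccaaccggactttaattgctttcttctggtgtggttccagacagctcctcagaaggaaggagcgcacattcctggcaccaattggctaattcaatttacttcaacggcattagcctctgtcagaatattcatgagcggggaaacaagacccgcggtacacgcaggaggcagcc

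The promoters of Cdh6 and Cdh9, neighbours on chromosome 15 that encode closely related type II cadherins, share a run of 15 bases in the same orientation, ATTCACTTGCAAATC. The run lies 18 to 4 bases before the Cdh6 start and 209 to 195 bases before the Cdh9 start. Of 21263 promoter windows of the same length, 2 hold it on either strand, those of Cdh6 and Cdh9. It was found by comparing the 10 annotated promoters of the members with each other after the sequences were seen. The longest runs shared by other pairs had up to 13 bases, and the 13-base one, between Cdh6 and Cdh8, occurred in 96 windows. A run of 12 bases shared by Cdh22 and Cdh7, which lie on different chromosomes, occurred in 2 windows. A run held by so few windows was thus not particular to Cdh6 and Cdh9. Both copies of the 15-base run lie inside a peak interval, 22 bp from a summit of 136 reads at Cdh6 and 114 bp from a summit of 39 reads at Cdh9. Sequence identity here is a description and shows no binding of a factor.

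Starts differed in strength and shape. At Cdh6 the interval chr15:13172805-13174985 was 2181 bp wide and held 4 summits of 38 to 136 reads. Its highest summit, 8.02-fold over a background of 16.1 reads, lay 18 bp after the annotated start. This start is 2.73 kb inside the gene span, so windows at the gene ends miss it. Cdh12, a cadherin of the brain, had an internal start of the same kind, 487 kb from the nearer gene end. The entry beside it (chr15:21110731-21111730) had 69 reads and 9.61-fold, the highest fold of the locus, with its summit 341 bp before the start. Cdh9 had a single entry at its start, with 39 reads and 6.28-fold at 323 bp before it.

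Cdh8, a type II cadherin of specific neural circuits, had 6 summits in an interval of 1843 bp over its start (chr8:99415083-99416925), all low, with 29 to 47 reads. Cdh20, the mouse counterpart of a cadherin that marks motor pools in the chick, had 5 summits of 48 to 57 reads side by side in 1305 bp (chr1:104768344-104769648). At Cdh22, a cadherin known from brain and pituitary, an interval of 1771 bp (chr2:165233496-165235266) held 2 summits, of 71 and 34 reads, and the higher lay 112 bp after the start. Cdh7, a type II cadherin known in the chick from neural crest and spinal cord, has 3 annotated starts within a short stretch. The interval chr1:109982498-109983252 covered the first of them with 2 summits of 53 reads each, and the other two starts lay outside it.

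Cdh10 had no summit within 1 kb of its annotated start. Its nearest summit, of 62 reads and 7.93-fold, lay 1223 bp after it (chr15:18821317-18821714). Before the start, the interval chr15:18818378-18819348 held a summit of 55 reads and 7.40-fold and a weak one of 13 reads. The higher lay 239 bp outside the gene's lower-coordinate end, where the span of this plus-strand gene begins. The annotated start itself is 1.46 kb inside the span and no interval covered it. For Cdh2 and Cdh11 the ends of the gene span were used. The higher-coordinate end of Cdh2 held a 2064 bp interval (chr18:16807764-16809827) with 4 summits of 39 to 145 reads. Near the higher-coordinate end of Cdh11, a cadherin best known from bone and mesenchyme, 4 summits of 81 to 90 reads lay in 2 intervals. The backgrounds at these ends were the highest of the loci, up to 23.8 reads at Cdh2 and 18.7 at Cdh11, and their folds reached 5.88 at Cdh2 and 4.66 at Cdh11.

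**Figure D1:**
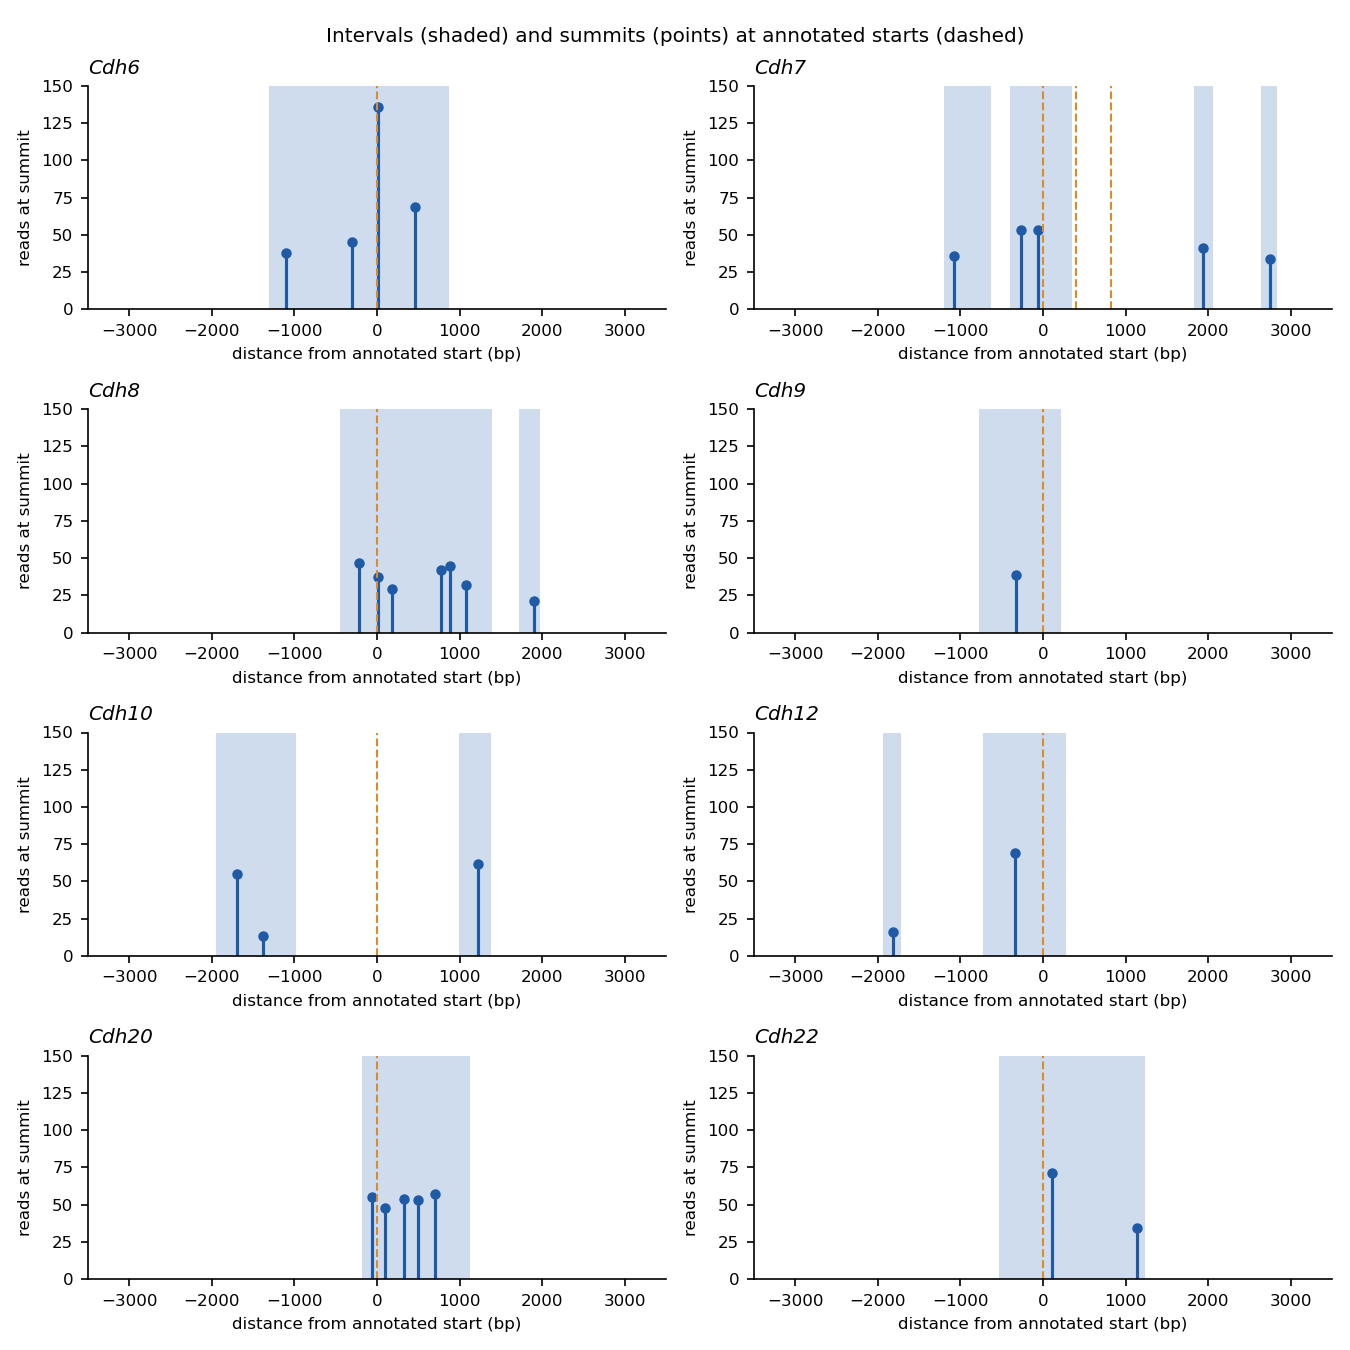
Reads at each summit (points, vertical axis) against the distance from the annotated start in bp (horizontal axis, direction of transcription to the right) for the 8 members with an annotated start. Shaded bands are peak intervals and dashed lines annotated starts: Cdh6 carries the highest summit, 136 reads, Cdh8 and Cdh20 carry rows of lower summits, and the start of Cdh10 lies between intervals.

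The base composition of these promoters spans a wide range. Cdh22 had 77.6% G and C and 30 CpG pairs in its 250 bases, and Cdh8 64.4% and 20. The medians over all 21263 promoter windows were 55.6% and 10. Cdh12 had 46.8% and 7, Cdh9 48.0% and 6, Cdh20 47.6% and 10 and Cdh6 51.2% and 6. Cdh10 was lowest, with 36.8% and 2. Both ends of this range had accessible sequence near the start, although the summits beside Cdh10 lay more than 1 kb from it.

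The members' promoters were searched for short motifs of motor neuron and general factors. Both strands were searched, and no matches in the members' promoters overlapped. TGACAG, a Meis-type motif, occurred in the promoters of Cdh6, Cdh20 and the second start of Cdh7, 3 of 10, against 15.4% of all promoters. CAGCTG, an E-box, occurred at Cdh9 and Cdh12 (12.1% of all promoters). The third start of Cdh7 held TAATTA, a homeodomain motif (4.31%), and CAGATG, another E-box (12.4%). None of the 10 held the Ebf palindrome (0.832% of all promoters), ATCAAT (Onecut, 5.97%), ACAATG (Sox, 9.35%), CCGGAAG (Ets, 8.98%) or TATAAA (11.6%). These matches are descriptions of 10 windows, and no test was made of them. Motifs in the peaks themselves were not searched, since no genome sequence was used here.

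The number of entries differed widely among the members. Cdh2 had 51, Cdh12 35, Cdh6 and Cdh22 31 each, Cdh20 27 and Cdh11 26. Cdh8 had 18, Cdh10 11, Cdh7 10 and Cdh9 2. The order depended on weak entries. In the upper 50% of all entries by −log10 q, Cdh2 had 17, Cdh20 16, Cdh22 14, Cdh11 13, Cdh6 and Cdh12 12 each, Cdh8 and Cdh10 9 each, Cdh7 8 and Cdh9 2. With 1 entry per interval, Cdh20 had 17. All 10 thus had at least 1 entry, as did 83% of all genes. The median was 26.5 entries per cadherin gene, against 3 per protein-coding gene. With more than 13 entries, 7 of the 10 stood in the top 10% of all genes, a limit that 9.89% of genes passed. Long genes hold more entries, and 57.1% of the longest 10% of genes passed the same limit.

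Per length of sequence searched, the members did not stand above other genes as a list. Their median was 4.68 entries per 100 kb, against 6.0 over all genes and 5.21 over the longest 10%, and none of the 10 stood in the top 10% of all genes by density (10% of all genes passed). Within the list, however, the density ran from 0.61 to 18.9 per 100 kb. Cdh22 had 18.9 (exact 95% Poisson interval 12.8 to 26.8), a higher density than 98.5% of the longest 10% of genes. Cdh2 had 12.1 (9.03 to 15.9), higher than 91.2% of them, and Cdh6 10.5 (7.15 to 14.9), higher than 86.7%. Cdh11 followed with 7.36 (4.81 to 10.8) and Cdh20 with 6.32 (4.17 to 9.20).

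The remaining 5 members were sparse. Cdh8 had 3.03 entries per 100 kb (1.80 to 4.80), Cdh10 2.77 (1.38 to 4.95), Cdh7 2.75 (1.32 to 5.07) and Cdh12 2.59 (1.81 to 3.61). Cdh9 had 0.61 (0.07 to 2.2), and 0.78% of long genes were sparser. In this order no gene stood apart from its next neighbour by separate intervals, yet 22 of 45 pairs of members had intervals that did not overlap. The share of such pairs among other long genes was not measured, so the count does not set the cadherins apart. It was not recomputed without weak entries. The intervals cover counting error only and treat entries as independent, although entries of 1 interval are not.

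**Figure D2:**
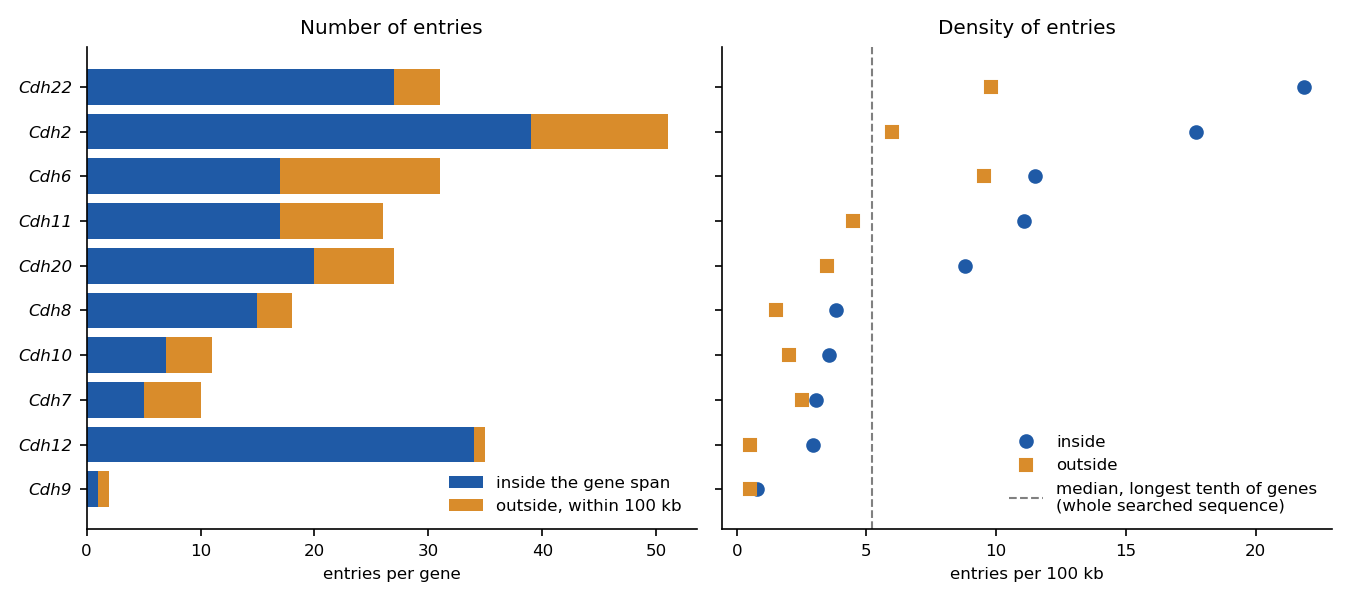
Entries per gene (left, number, split into those inside the gene span and those outside within 100 kb) and entries per 100 kb (right, circles inside, squares outside), with genes ordered by density over all sequence searched and a dashed line at the median of the longest 10% of genes, 5.21 per 100 kb. The circles lie to the right of the squares for 10 of 10 members (62.5% of the longest 10% of genes), from 21.9 and 9.82 at Cdh22 to 0.78 and 0.50 at Cdh9, where each is 1 entry. Summits at a start or end that lie in the span count as inside.

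Entries lay more densely inside the cadherin gene spans, starts and ends included, than around them. The spans made up 61.9% of the 4.69 Mb searched and held 75.2% of the entries (exact 95% binomial interval 69.3 to 80.5%). The higher density inside held for 10 of 10 members, against 58.5% of the 18165 genes with an entry and with sequence searched outside, and 62.5% of such genes among the longest 10%. At Cdh9 it rested on 1 entry inside, at the start, and 1 outside, and at Cdh7 on 5 and 5. Summits at a start or end that lay in the span count as inside, such as those over the Cdh6 start. The inside density without such summits was not measured. A higher density away from starts and ends is therefore not shown for every member. The 10 entries of Cdh7 lay in 9 intervals, and the shared interval lay inside the span. Counting 1 entry per interval would put the inside density of Cdh7 just below its outside density. At Cdh2 it was 17.7 inside and 6.0 outside per 100 kb, at Cdh11 11.1 and 4.5, at Cdh20 8.81 and 3.50, and at Cdh12 2.96 and 0.50. Cdh6 and Cdh7 came closest to even, with 11.5 and 9.54, and 3.07 and 2.50. Entries away from starts and ends but inside a gene made up 63.6% of the cadherin entries (57.2 to 69.7%), against 37.1% of all entries. Entries at a start or end made up 13.2% (9.22 to 18.2%), against 21.3% of all entries. Cadherin genes are long, with a median span of 180.2 kb against 17.2 kb over all genes, and the rule counts whole spans.

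Cdh2 had the most sites. Of its 51 entries 39 lay inside the gene, with no stretch longer than 25.5 kb between them. Entries in the middle of the gene reached 86 reads and 6.98-fold (chr18:16740589-16741105, 68.4 kb from the nearer end), 80 reads and 5.78-fold (chr18:16675224-16675638) and 79 reads and 6.44-fold (chr18:16669996-16670808). The highest fold of the locus, 8.96 with 61 reads, lay 13 kb outside the higher-coordinate end (chr18:16821987-16822564). In all, 9 entries had 60 reads or more, the most of any member. At the same time 12 of the 51 had a q-value of 0.05 or more, so the count of Cdh2 rests partly on weak entries.

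Cdh6 had its sites in and upstream of the gene. All 14 outside entries lay on the side of the start, which made up most of the 146.7 kb searched outside. Of these entries, 4 formed the interval chr15:13212059-13213722, 1664 bp wide, with 114, 40, 124 and 99 reads. Its summits stood 38.7 to 39.6 kb before the annotated start, and the 124 reads there came close to the 136 at the start itself. A further upstream entry (chr15:13192808-13193630) had 52 reads and 8.03-fold. Inside the gene, outside the interval over the start, no entry exceeded 36 reads.

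Cdh11 held the most reads and the highest fold of any cadherin entry, apart from a single entry of Cdh8. The entry chr8:102726323-102727237 had 170 reads and 10.8-fold and lay 58.7 kb from the nearer end. A second one, chr8:102741917-102742644, had 136 reads and 12.8-fold. Outside the gene, entries of 63 reads and 10.1-fold (chr8:102547784-102547966) and of 62 reads and 8.35-fold (chr8:102596290-102596972) lay on the lower-coordinate side, 84.2 and 35.5 kb away.

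Cdh20 had strong sites on both sides of its start and beyond the far end. Inside the gene, chr1:104956808-104957480 had 85 reads and 11.1-fold, and chr1:104847938-104849267 held a summit of 85 reads and 8.34-fold. Near the far end chr1:104993855-104994725 reached 72 reads and 8.49-fold, and 17.3 kb past it chr1:105012023-105013530 reached 63 reads and 8.69-fold. Before the start, the strongest had 50 reads and 6.93-fold (chr1:104746710-104747322, 21.4 kb outside the gene).

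Cdh22 is the shortest of the group, with a span of 123.4 kb, and its 27 internal entries left no stretch longer than 21.9 kb. The strongest were chr2:165195386-165196362 with 80 reads and 7.07-fold, chr2:165136000-165136621 with 77 reads and 6.04-fold and chr2:165113723-165114231 with 68 reads and 6.54-fold. Of its 31 entries 25 had a q-value under 0.05. Its neighbours lie close, so the sequence searched outside was 40.7 kb, against 146.7 kb at Cdh6 and 200 kb at each of the other 8 members.

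Sites of Cdh7, Cdh8 and Cdh10 were gathered at the start or scattered far apart. At Cdh7, 133.4 kb of the 163.0 kb span had no entry, and beyond it stood a single strong site, chr1:110118768-110119517, with 68 reads and 9.63-fold. Cdh8 had a stretch of 147.3 kb without an entry just inside its start. Cdh10 had internal entries of 33 and 31 reads in 1 interval (chr15:18925714-18926367), and its strongest entry lay past the far end, with 109 reads and 10.2-fold at chr15:19114776-19115509. That summit was 99.0 kb from the gene, just inside the limit of 100 kb. Just outside the limit, at 103.0 kb, an entry had 46 reads and 4.20-fold.

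Cdh12 and Cdh9 were the sparsest. Cdh12 spans 1149.5 kb, and 34 of its 35 entries lay inside, with 252.0 kb as the longest stretch without one. Besides the internal start, its strongest entries were 1 of 50 reads and 8.01-fold (chr15:20732029-20732338) and 1 of 49 reads and 7.85-fold at the lower-coordinate end (chr15:20448728-20449597). All others had at most 36 reads. Cdh9, a type II cadherin of synapses in the mouse hippocampus, had an entry at its start and 1 of 29 reads and 4.71-fold 20.8 kb outside the gene (chr15:16707563-16707882). The remaining 128.5 kb of its span held no entry.

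**Figure D3:**
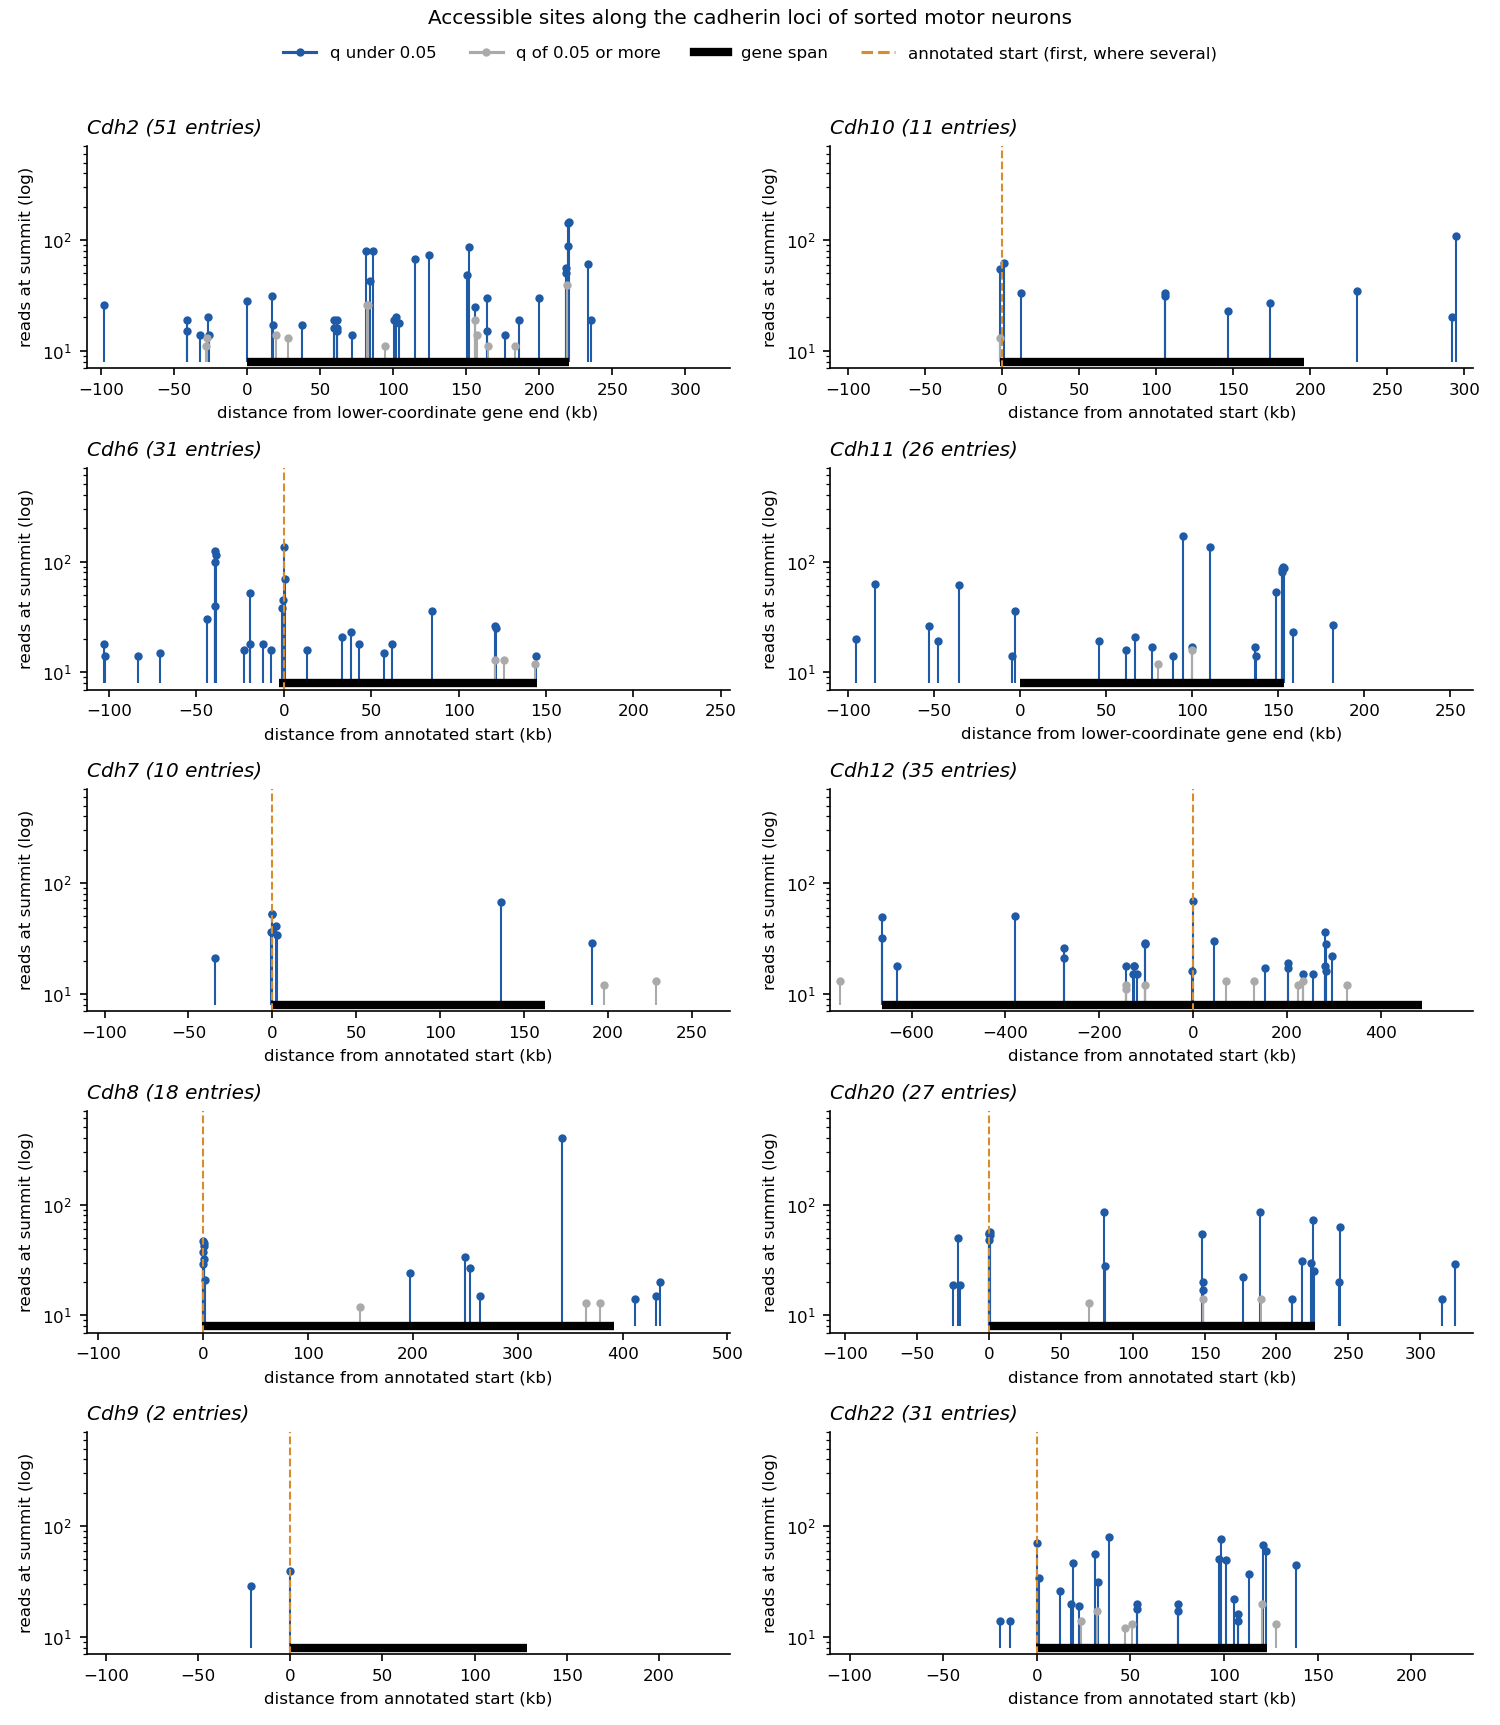
Reads at each summit (vertical axis, log scale) against distance in kb (horizontal axis) for each member, measured from the annotated start along the direction of transcription, or from the lower-coordinate gene end for Cdh2 and Cdh11. Black bars are gene spans, dashed lines annotated starts (the first for Cdh7) and grey points entries with a q-value of 0.05 or more: Cdh2 and Cdh22 are filled along their length, whereas Cdh9 has 1 entry at its start and 1 upstream.

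A single Cdh8 entry exceeded every other cadherin entry. It lay inside the gene at chr8:99073633-99074020, 388 bp wide and 49.3 kb from the nearer end, with 401 reads and 43.4-fold over a background of 8.27 reads. Among all 137849 chromosomal entries it ranked 65th by fold and 247th by reads. Without it, the highest values at Cdh8 were 5.50-fold and 47 reads, and the highest among the cadherins 12.8-fold and 170 reads. Entries of 20-fold or more numbered 450, or 0.326% of all. They lay mostly in a narrow band that ran on from entries of lower fold without a gap. Entries at the lowest background, 5.37 reads, fall on a line by construction, because there the fold follows from the reads alone. How much of the band is this line was not measured, and the Cdh8 entry has a higher background. Of the 450 entries, 3 (0.667%) lay at a start or end, against 21.3% of all entries, and their median width was 388 bp. Annotations of repeats and of regions prone to artefact signal were not used here, so whether this entry is an accessible site was not tested.

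Apart from it, the cadherin entries were as strong as others in the list or weaker. Their median was 2.98-fold and 21 reads, with and without the Cdh8 entry, against 3.14-fold and 24 reads over all entries. Inside genes the medians were 2.87-fold and 20 reads for the cadherins and 2.83-fold and 20 reads for all. At starts and ends they were 4.61-fold and 53 reads against 5.34-fold and 62 reads. With 100 reads or more there were 9 cadherin entries, 3.72% (1.71 to 6.94%), against 8.59% of all. These 9 belonged to Cdh2, Cdh6, Cdh8, Cdh10 and Cdh11. A q-value of 0.05 or more was given to 16.9% of cadherin entries (12.4 to 22.3%) and to 17.7% of all.

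**Figure D4:**
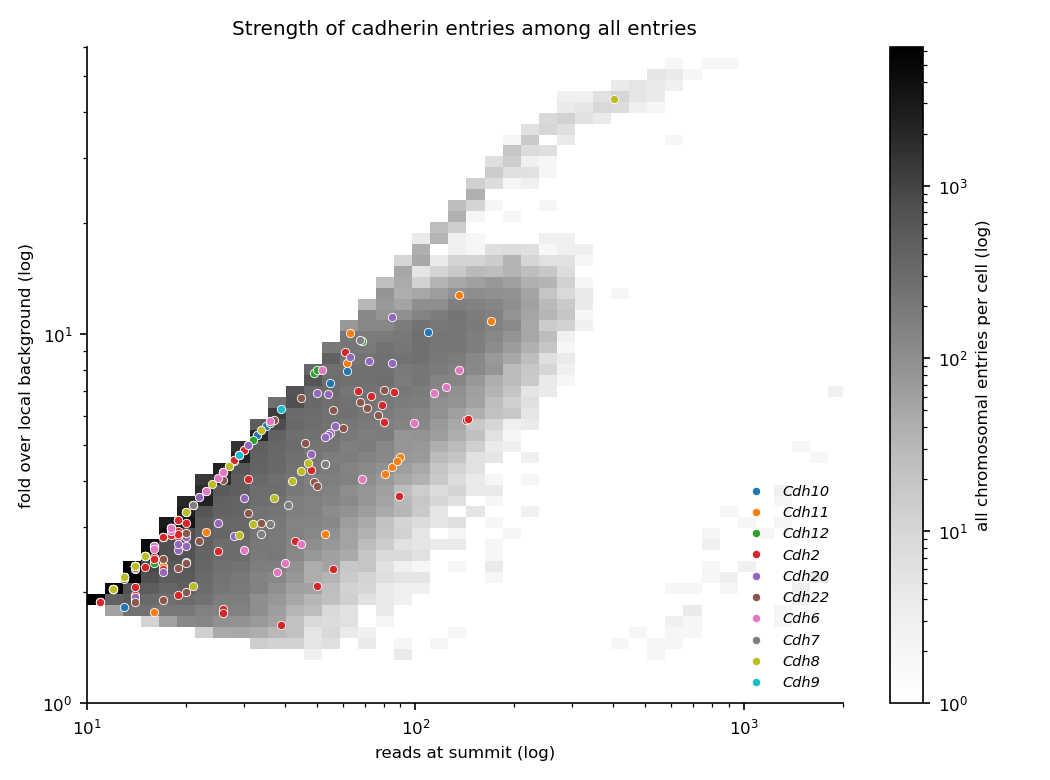
Fold over local background (vertical axis, log scale) against reads at the summit (horizontal axis, log scale) for the 242 cadherin entries, coloured by gene, over the density of all chromosomal entries (grey, log scale). The Cdh8 entry of 401 reads lies on a narrow band that runs on from the bulk of the list to high fold, and the others lie within the bulk.

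Peak intervals of the cadherins had widths much like those of the list. The 184 intervals had a median width of 369.5 bp, against 379 bp for all 103795, and 6 of them (3.26%, 1.21 to 6.96%) were 1500 bp or wider, against 2.14%. Of these 6, 3 lay over the annotated starts of Cdh6, Cdh8 and Cdh22 and 1 at the higher-coordinate end of Cdh2. The other two were the upstream interval of Cdh6 and the one past the far end of Cdh20.

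Type II cadherin genes lie in clusters, and the stretches between them without another protein-coding gene held few entries per length. On chromosome 15, Cdh6, Cdh9, Cdh10 and Cdh12 follow each other with no other protein-coding gene between them. The 3.55 Mb between Cdh6 and Cdh9 held 62 entries, or 1.75 per 100 kb. The 1.96 Mb between Cdh9 and Cdh10 held 17 (0.87 per 100 kb) and the 1.43 Mb between Cdh10 and Cdh12 held 27 (1.88 per 100 kb). Between Cdh8 and Cdh11 on chromosome 8, 3.21 Mb without another protein-coding gene held 87 entries (2.71 per 100 kb). The highest fold in these stretches ran from 22.3 to 50.5, and the highest read number from 141 to 533. The chromosomes as a whole, genes included, had 5.06 per 100 kb. The density of other sequence without genes was not measured. Between Cdh20 and Cdh7 on chromosome 1 there are 21 other genes, and the density was 4.51. Of these 5 neighbouring pairs, Cdh6 and Cdh9 (31 and 2 entries) and Cdh11 and Cdh8 (7.36 and 3.03 per 100 kb) had Poisson intervals of the density that did not overlap. For Cdh11 and Cdh8 this was by a hair, with a lower limit of 4.81 and an upper limit of 4.80. How often neighbouring genes elsewhere differ in this way was not measured. The intervals of Cdh9 and Cdh10, of Cdh10 and Cdh12 and of Cdh20 and Cdh7 overlapped.

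The limit of 100 kb left out further sites between genes, up to 200 kb away, for which a cadherin end was the nearest. Cdh11 had 13 further entries, Cdh2, Cdh6 and Cdh10 4 each, Cdh7 3, Cdh9 and Cdh20 2 each and Cdh8 1, whereas Cdh12 and Cdh22 had none. The closest to the limit were a Cdh6 entry of 18 reads at 99.8 kb, inside it, and 1 of 17 reads at 100.5 kb, beyond it.

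Other adhesion genes were examined to place the cadherins. The 12 other cadherin genes had a median of 6 entries and 7.08 per 100 kb, with 8 of 12 at a start or end (69.3% of all genes). Cdh4 (R-cadherin, a type I cadherin) had 47 and Cdh13, which lacks the usual membrane anchor, 37. Genes that work with cadherins at the membrane, 12 catenins, nectins and related proteins, had a median of 12.5 entries and 6.10 per 100 kb, and 12 of 12 had one at a start or end. Ctnna2, the neuronal alpha-catenin, had 78 and Ctnna3 50. The 10 delta protocadherins had a median of 17.5 entries and 4.74 per 100 kb, led by Pcdh9 with 62 and Pcdh7 with 27. The 16 axonal immunoglobulin adhesion genes had 30 and 5.46, led by Nrcam with 61, and Chl1 and Cadm1 with 49 each. All members of these 4 lists had at least 1 entry. The cadherin density of 4.68 lay beside that of the delta protocadherins, and the ranges of all 5 lists overlapped, and no test was made between them.

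**Figure D5:**
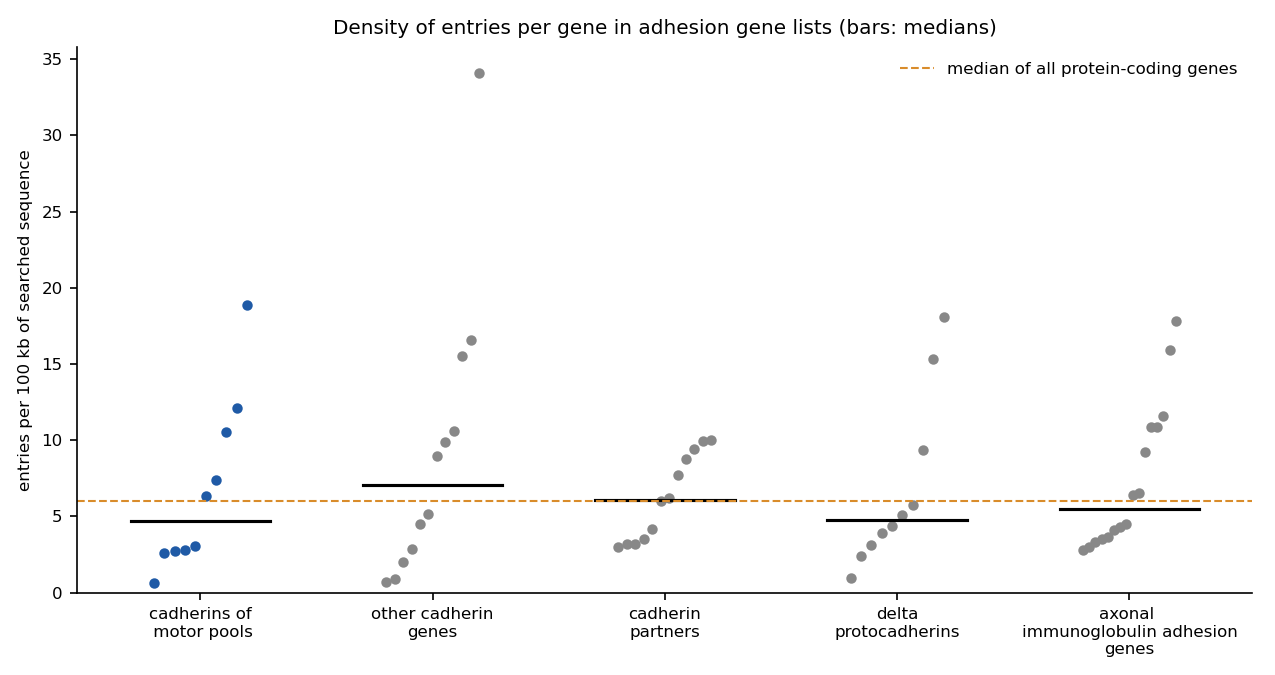
Entries per 100 kb of sequence searched (vertical axis) for each gene (points) of the 10 cadherins of motor pools and of 4 other adhesion gene lists (horizontal axis), with bars at the list medians. The dashed line is the median of all protein-coding genes, 6.0 per 100 kb, and the points of all 5 lists overlap.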

How the data were processed

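ATAC-seq libraries of 2 replicates were amplified with 8 to 9 PCR cycles and sequenced as paired 75-nt reads, per the labels. Per the submitters' processing notes, the build was mm10 and the tools included MACS2 2.2.7.1, SAMtools 1.7.2, BWA 0.7.1.7, cutadapt 0.6.2 and Trim Galore. What each did, duplicate handling, any Tn5 shift and the filter: not given in the sources used here. The deposited list gives each entry a fold (ratio to local background), a score, and −log10 p-values and q-values from the authors' caller. The score was not used. Reads and background at each summit were solved from the deposited fold, (reads + 1)/(background + 1), and the Poisson tail of the −log10 p. For 99.96% of entries the solved reads were whole to within 0.01. Library depth is unknown. Gene spans (21887 genes) and starts came from RefSeq tables of GRCm38.p6. Exons were not used. Density is entries divided by the gene span plus the sequence within 100 kb nearest to its ends. Shares of genes are those with a lower value. Calculations used Python 3.11.15, pandas 2.3.3 and scipy 1.17.1 and were tested on simulated data. The members and lists were chosen with earlier results of these data known. All 10 members are named, with their strongest entries and those at starts or ends, and in the other lists the genes with most entries.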

Additional observations from a re-analysis of the deposited data

How the results depend on the processing

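The total and per-gene entries, pooled density, median percentile of density, shares at a start or end and inside the spans, median fold and reads, and the genes in the top 10% and with a start or end entry were recomputed with entries of q under 0.05, the upper 50% of entries by −log10 q, 1 entry per interval, a reach of 50 kb (not for the count of genes with a start or end entry), and after leaving out backgrounds of 30 reads or more. Leaving unassigned the summits inside another gene kept the 242 entries. Without entries of 20-fold or more, an alternative chosen after seeing the data, all stayed within their intervals. The 10 genes with an entry at a start or end stayed 10 under every setting that kept the gene ends, windows of 500 bp and 2 kb included. With annotated starts alone, also added later, they were 7. The 242 entries became 112 with the upper 50% of entries. The pooled density of 5.16 per 100 kb became 4.28 with q under 0.05, 2.39 with the upper 50%, 3.92 with 1 entry per interval and 5.94 with a reach of 50 kb. The share at a start or end was 25.9% with the upper 50% and 8.2% with 1 entry per interval, against 13.2%. Median fold was 3.46 and median reads 27.0 with q under 0.05, and 4.87 and 46.5 with the upper 50%. Fewer or stronger entries enter under these settings by construction. The 7 members in the top 10% of genes by entries became 9 with the upper 50%. In all, 49 of 60 such values stayed within the interval of the reported one or, for counts, within 1.5 times of it. Of the entry counts of single genes, 62 did, and the 8 that did not stand beside the counts per gene. These limits are loose. The interval of the median percentile rests on 10 genes and is so wide that its values could hardly leave it. The rule of 1.5 times also counts the change from 10 to 7 genes with annotated starts alone as kept. Other values in the text have no alternative. No paired analysis was possible because both replicates belong to 1 group and were pooled into 1 list, and for the same reason no replicate could be left out. Motif shares in peaks were not run without a genome. Depth limits the weak entries most, since the smallest rest on 11 reads.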
